A study of Drosophila melanogaster with 12 samples.

Results

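Tracheae of the larva and of the adult fly were set together against the whole fly, to find the transcripts that the airways of both stages carry at higher, or at lower, levels than the body as a whole. All 12 libraries of the series entered the comparison, 4 of adult tracheae, 4 of larval tracheae and 4 of whole flies, and a gene was taken as shared only where the 8 tracheal libraries together and each tracheal group by itself differed from whole flies in the same direction. Of 17697 genes in the files 9449 had enough reads to be tested, with at least 10 exon reads in at least 4 libraries. By this rule 931 of them (9.85%) were shared higher and 537 (5.68%) were shared lower. These genes were chosen on the values that are given below for them, and the adult and the larval comparison share the same 4 whole-fly libraries.

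The adult tracheae came from *w1118* females aged 5 to 7 days, with as much tissue as could be taken by hand from head, thorax and abdomen, and the larval tracheae came from *w1118* animals of the middle of the 3rd instar, male and female mixed. The whole flies were *w1118* adults labelled female. Each library pooled 3 animals. Whole flies contain tracheae themselves, hand dissection can carry along other tissue, and the larval comparison also differs from the adult one in the age and sex of the animals. In material of this kind fewer cells of a type and less RNA per cell cannot be told apart.

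Tracheae are branched tubes of a single-layered epithelium that carry air from openings in the body wall to the tissues. Their cells are set apart in the embryo by the transcription factor Trachealess (encoded by *trh*) together with Ventral veins lacking (*vvl*), and they branch towards sources of the fibroblast growth factor Branchless (*bnl*) through its receptor Breathless (*btl*) and the adaptor Stumps. Towards the lumen each cell lays down an apical matrix of zona pellucida proteins and a chitinous cuticle, septate junctions seal the tube between the cells, and a basement membrane underlies it. The tracheal system is extensively remodelled at metamorphosis.

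The 3 genes taken as markers were high in both tracheal groups. The transcript of *trh* (FBgn0262139, which lies on 3L between bases 366524 and 392633 of BDGP6) was at 3.54, 1.88, 2.59 and 1.29 RPKM in adult tracheae and at 6.538, 3.90, 3.30 and 5.36 RPKM in larval tracheae. RPKM is the authors' unit and relates exon reads to exon length and to all gene reads of the library. No whole-fly library held a read of *trh*, so its level was at least 157-fold higher in adult and at least 377-fold higher in larval tracheae, counted against a floor of 3 reads over the 4 whole-fly libraries (edgeR's quasi-likelihood test of both groups against whole flies, adjusted p = 2.55e-05).

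The transcript of *btl* (FBgn0285896, 3L, bases 14075772 to 14083229) was at 2.35, 5.20, 6.59 and 3.55 RPKM in adult tracheae, at 53.6, 45.0, 37.3 and 47.7 RPKM in larval tracheae and at 0, 0.459, 0.175 and 0.788 RPKM in whole flies. The groups did not overlap. The log2 fold change of both tracheal groups against whole flies was 5.89 (standard error 0.72, adjusted p = 5.88e-05), from 4.19 in adult and 7.58 in larval tracheae. *emp*, which encodes a scavenger receptor of the CD36 family, was at 46.2, 90.5, 50.7 and 43.5 RPKM in adult tracheae, at 391.7, 362, 265 and 509 RPKM in larval tracheae and at 12.3, 13.2, 8.66 and 13.9 RPKM in whole flies. Every tracheal library was above every whole-fly library, and the log2 fold change was 4.14 (standard error 0.31, adjusted p = 2.96e-06).

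**Figure D1:**
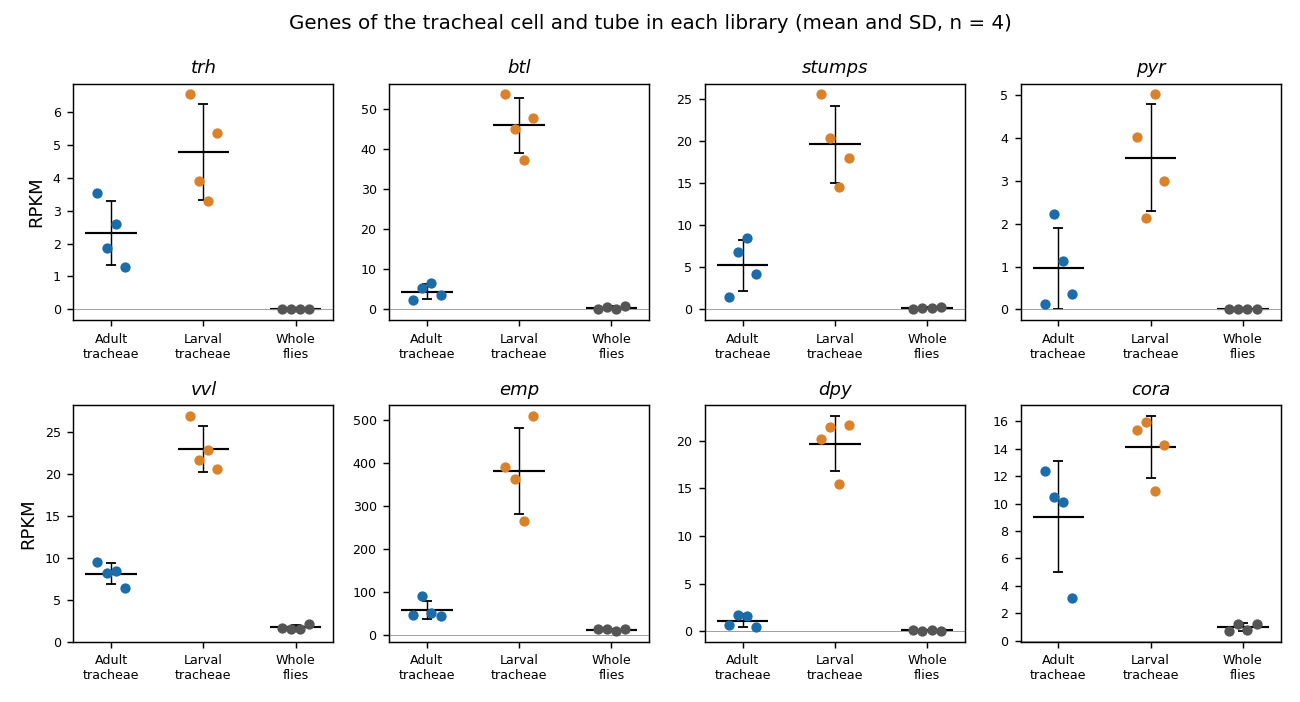
Level in RPKM of 8 genes of the tracheal cell and tube (*trh*, *btl*, *stumps*, *pyr*, *vvl*, *emp*, *dpy* and *cora*) in each library, with points for libraries, horizontal lines for group means and bars for the SD (n = 4). In each panel all 8 tracheal libraries lie above all 4 whole-fly libraries, and for *trh* and *pyr* the whole-fly libraries are at 0.

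Depth and composition differed between the libraries. Adult tracheal libraries held 4703048 to 13865281 exon reads, larval ones 4573842 to 7531621 and those of whole flies 5082949 to 9379722, so that 3 reads stand for 0.216 to 0.656 CPM and lower levels were not resolved. The 20 highest genes of a library took 19.3 to 51.3% of its exon reads in adult tracheae, with the highest share in replicate 3, against 31.7 to 39.9% for larval tracheae and only 15.1 to 15.7% for whole flies. Adult tracheal libraries were less alike among themselves (Pearson's r of log2 levels across genes 0.737 to 0.848) than larval (0.889 to 0.919) or whole-fly libraries (0.865 to 0.917). Between groups r was 0.464 to 0.535 for adult against larval tracheae and 0.510 to 0.805 for adult tracheae against whole flies. For larval tracheae against whole flies it was 0.423 to 0.472. Those coefficients are across genes, which are not independent replicates.

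All 8 tracheal libraries together were higher than whole flies in 1719 genes (18.2%) and lower in 2188 (23.2%). Adult tracheae by themselves were higher in 1567 genes (16.6%) and lower in 853 (9.03%), and larval tracheae were higher in 1903 (20.1%) and lower in 2473 (26.2%). In either direction these were 25.6% of genes for adult and 46.3% for larval tracheae. By stage, 263 genes were higher in adult and lower in larval tracheae than in whole flies, and 20 went the other way. The calls are those of edgeR's quasi-likelihood test, for which the fold change had to exceed 1.5 and the adjusted p had to be below 0.05. Among the 931 shared higher genes the median log2 fold change was 2.59 in adult and 3.48 in larval tracheae, beside 0.06 and -0.32 over all genes tested. In 599 of the 931 the 8 tracheal and the 4 whole-fly libraries did not overlap, as in 665 (7.04%) of all genes tested, and in 493 of the 537 shared lower genes they did not overlap, as in 947 (10%). The fold was above 8 in both stages for 327 of the shared higher genes and above 32 for 109. Leaving out adult trachea replicate 2 gave 313 shared lower genes and leaving out replicate 4 gave 872. Leaving out whole fly replicate 2 gave 269, and replicate 3 gave 299. With limma on log2(RPKM + 0.1), whose RPKM are scaled to gene reads without a correction for composition, 590 genes were shared higher and 1492 shared lower. At the edge of the set, *reb* and *Sirup* had a largest adjusted p of 0.0499 each and fell inside, and *Trf4-1* and *aop* had 0.0501 each and fell outside.

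The 931 shared higher genes took 7.09 to 13.3% of the exon reads of an adult tracheal library, 27.2 to 34.2% of a larval one and 3.08 to 4.21% of a whole-fly one. The 537 shared lower genes took 1.67 to 4.84%, 1.68 to 2.24% and 13.0 to 14.8%. Of the shared higher genes 834 had a mean of at least 1 RPKM and 358 of at least 10 RPKM in both tracheal groups, and 57 had no read in any whole-fly library.

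**Figure D2:**
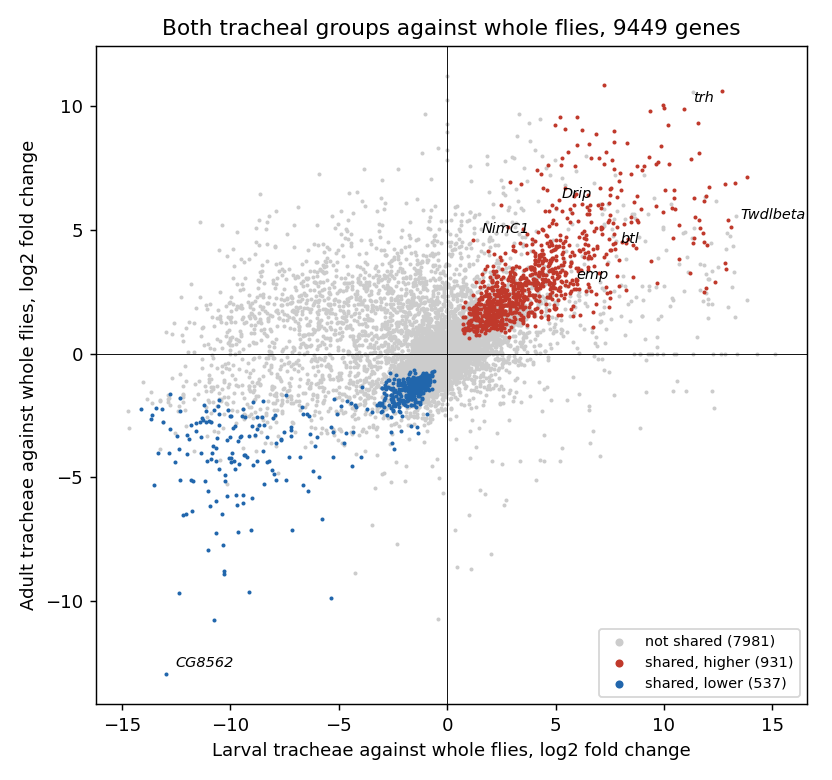
Fitted log2 fold change against whole flies of each of the 9449 genes tested, in larval tracheae (horizontal axis) and adult tracheae (vertical axis). The 931 shared higher genes are red, the 537 shared lower genes are blue and all others are grey, and fitted values of genes with no read in a group depend on the prior count of the fit. The shared lower genes reach farther along the larval than along the adult axis.

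Of the 17 genes listed as tracheal cell fate and branching factors 16 were tested, and 10 of these were shared higher and 0 shared lower (median log2 fold change over the list 4.20, beside -0.19 over all genes). The 8 of them that stayed in the set when any single library was left out were *trh*, *btl*, *stumps*, *vvl*, *salm*, *grh*, *sty* and *knrl*. The transcript of *stumps*, which couples the fibroblast growth factor receptors to the Ras pathway, was at 1.46, 6.83, 8.43 and 4.22 RPKM in adult tracheae, at 25.5, 20.3, 14.6 and 18.0 RPKM in larval tracheae and at 0 to 0.329 RPKM in whole flies. Its log2 fold change was 5.61 in adult and 7.53 in larval tracheae (adjusted p = 0.000653 and 1.39e-05).

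The transcript of *vvl*, which encodes a POU-domain factor, was at 9.48, 8.20, 8.42 and 6.38 RPKM in adult tracheae, at 26.9, 21.7, 22.8 and 20.6 RPKM in larval tracheae and at 1.67, 1.54, 1.51 and 2.12 RPKM in whole flies. The levels of *vvl* were 6.82-fold and 20.1-fold higher, without overlap between the 3 groups. *salm*, a zinc finger factor that shapes the dorsal trunk, was at 1.14 ± 0.524 RPKM (SD, n = 4) in adult, 3.30 ± 0.12 in larval tracheae and 0.15 ± 0.149 in whole flies. *grh*, which encodes a factor that controls the apical membrane and the cuticle of epithelia, was at 0.924 ± 0.363, 6.06 ± 1.93 and 0.127 ± 0.137 RPKM, and *sty*, an inhibitor of growth factor signalling, at 2.74 ± 1.68, 5.19 ± 1.44 and 0.482 ± 0.387 RPKM. The tests of these genes are all below an adjusted p of 0.05 in each stage, but levels near 1 RPKM rest on few reads, and *grh* was not called in adult tracheae with an offset for exon length (adjusted p = 0.0693).

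The fly has 2 further ligands of this family, Pyramus and Thisbe, known from the mesoderm where they act on the receptor Heartless. In a list of 6 genes of fibroblast growth factor signalling, drawn up after the values were seen, 5 were shared higher, beside 9.85% of all genes. The count was 3 to 5 when a single library was left out, with 3 without adult trachea replicate 3. The transcript of *pyr* was at 0.121, 2.23, 1.12 and 0.359 RPKM in adult tracheae, at 4.04, 2.12, 5.03 and 3.01 RPKM in larval tracheae and at 0 in whole flies. It was at least 40.1-fold higher in adult and at least 153-fold higher in larval tracheae (adjusted p = 0.00395 and 0.000326).

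The genes of the tube's apical matrix were higher in both groups in part. Of 9 tested zona pellucida genes 3 were shared higher, *dpy*, *pio* and *pot*. *dpy*, which encodes a giant protein that spans the lumen, was at 0.620, 1.69, 1.61 and 0.378 RPKM in adult tracheae, at 20.2, 21.5, 15.4 and 21.6 RPKM in larval tracheae and at 0.00769 to 0.151 RPKM in whole flies. With an offset for exon length *dpy* was not called in adult tracheae (adjusted p = 0.168). The levels in larval tracheae were above those in adult tracheae without overlap (adult against larval log2 fold change -4.22, adjusted p = 0.00106). *pio* was at 8.92, 7.53, 11.1 and 4.57 RPKM in adult, 42.5, 38.5, 34.9 and 37.7 RPKM in larval tracheae and 0.978, 0.534, 1.39 and 2.40 RPKM in whole flies, 9.15-fold and 43.6-fold higher.

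Of 21 genes of chitin synthesis and assembly 7 were shared higher, with 2 to 9 when a single library was left out and 2 of the 7, *Cda5* and *Cht5*, in the set each time (the lowest count came without whole fly replicate 3). *Cht5*, which encodes a chitinase of the moulting fluid, was at 9.63, 31.97, 25.1 and 14.4 RPKM in adult tracheae and at 4.94, 55.6, 7.89 and 60.5 RPKM in larval tracheae, beside 0 to 2.53 RPKM in whole flies. The larval libraries thus spread over more than the adult ones. *Cda5*, a chitin deacetylase, was at 0.328 ± 0.169 RPKM (SD, n = 4) in adult, 5.17 ± 1.71 in larval tracheae and 0.029 ± 0.0581 in whole flies. With an offset for exon length *Cda5* was not called in adult tracheae (adjusted p = 0.0672). The list as a whole had a median log2 fold change of 6.50 in larval and 1.01 in adult tracheae.

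The septate junctions are the barrier between the cells. Of 25 tested genes of septate junctions 14 were shared higher and 0 lower (median log2 fold change 2.00), with 8 to 16 when a single library was left out, the lowest count without whole fly replicate 2, and 7 with an offset for exon length. The 8 that stayed each time were *cora*, *Nrx-IV*, *Cont*, *Nrg*, *nrv2*, *sinu*, *dlg1* and *Fas3*. *cora*, which links the junction to the membrane skeleton, was at 12.4, 10.5, 10.1 and 3.13 RPKM in adult tracheae, at 15.4, 15.9, 10.9 and 14.3 RPKM in larval tracheae and at 0.736, 1.26, 0.760 and 1.19 RPKM in whole flies. Its levels rose 13.4-fold and 21.4-fold (adjusted p = 0.000399 and 1.32e-05). *nrv2*, a subunit of the sodium pump needed for the junction's barrier, was at 31.8 ± 20.1 RPKM (SD, n = 4) in adult, 45.6 ± 4.90 in larval tracheae and 6.68 ± 3.75 in whole flies, and *Fas3*, an adhesion molecule, at 13.2 ± 8.87, 40.1 ± 4.53 and 2.36 ± 2.37 RPKM.

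Of 15 genes of adherens junctions and polarity 4 were shared higher, with 2 without adult trachea replicate 2 and 7 without adult trachea replicate 4, and those that stayed each time were *alpha-Cat*, which ties cadherin to actin, and *zip*, the heavy chain of non-muscle myosin. With an offset for exon length *zip* was not called in each stage (largest adjusted p = 0.167). *alpha-Cat* was 10.7-fold higher in adult and 28.9-fold higher in larval tracheae. Of 17 actin regulators of tube shape 4 were shared higher and none of the 4 stayed in the set without each library in turn (1 was left without adult trachea replicate 3). The gap junction family had 2 of 6 tested innexins in the set, *ogre* (13.9 ± 7.502, 39.6 ± 9.88 and 3.34 ± 1.39 RPKM, SD, n = 4, in adult tracheae, larval tracheae and whole flies) and *Inx3* (21.5 ± 9.57, 181 ± 8.18 and 8.63 ± 4.16 RPKM). Only 24.4% of the reads of *Inx3* were uniquely mapped, and with those alone it was not in the set. The innexin family was drawn up after the values were seen, and its count stands beside 9.85% of all genes. Of the 6 innexins 4 were higher and 1 lower in both groups together. Without overlap of tracheal and whole-fly libraries, 1 was higher and 2 were lower.

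On the basal side 5 of 15 basement membrane genes and 6 of 15 genes of integrin adhesion were shared higher. The integrin count was 3 without adult trachea replicate 3 and 8 without adult trachea replicate 4, and *mew* and *by* stayed each time, while the basement membrane count was 4 to 6. *trol*, which encodes the perlecan of the fly, was at 6.43, 14.0, 19.8 and 3.71 RPKM in adult tracheae, at 114, 69.2, 99.5 and 82.04 RPKM in larval tracheae and at 2.13, 2.36, 2.12 and 1.90 RPKM in whole flies. No library of adult tracheae reached a larval one. *LanB2*, a laminin chain, was 4.80-fold and 3.86-fold higher, and *Ppn*, the matrix protein papilin that haemocytes also make, 9.36-fold and 3.04-fold, but *Ppn* was not called in larval tracheae with an offset for exon length (adjusted p = 0.653) or with limma (0.0736 to 0.0909). Among the integrin genes *mew*, an alpha subunit, had 2.89 ± 1.13 RPKM (SD, n = 4) in adult tracheae, 10.02 ± 3.58 in larval tracheae and 0.169 ± 0.181 in whole flies, and *by*, a tensin at adhesion sites, was 3.16-fold and 13.5-fold higher. With an offset for exon length 2 genes of each list were shared higher.

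**Figure D3:**
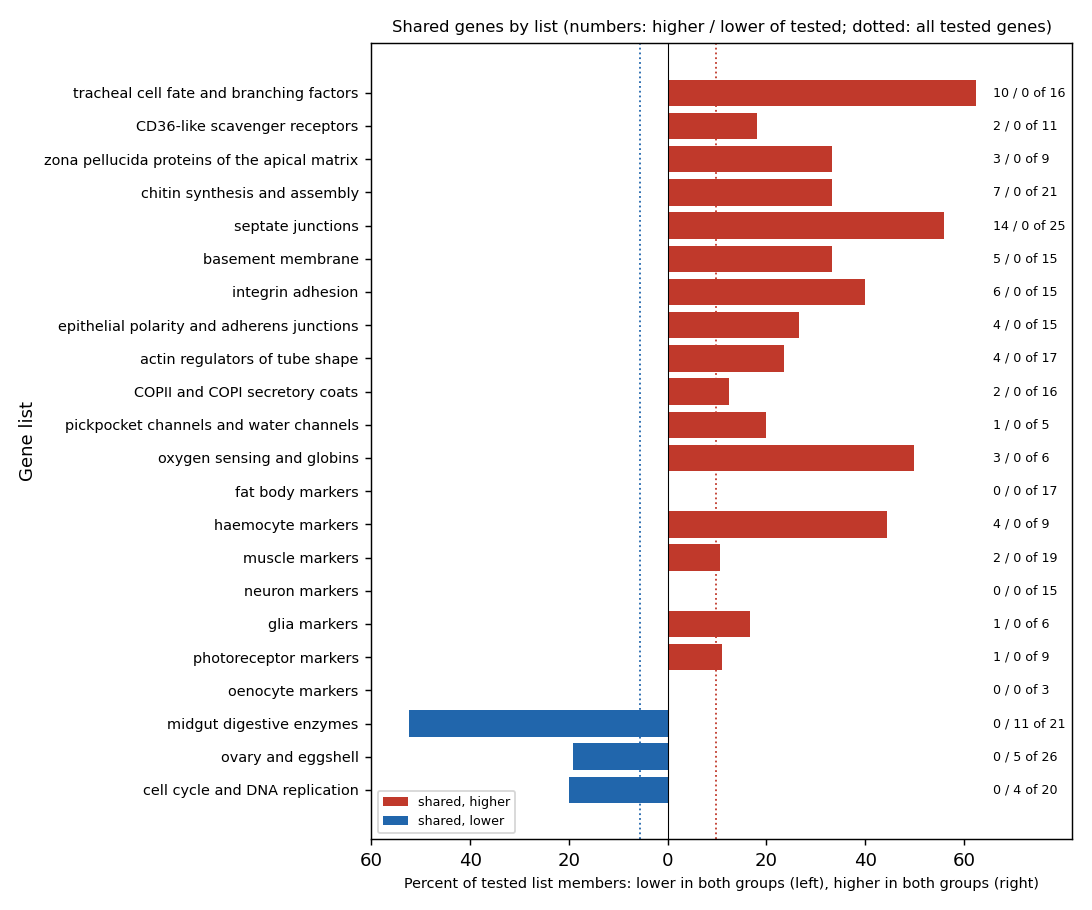
Share of the tested members of each plotted gene list that were shared higher (bars to the right, red) and shared lower (bars to the left, blue), with the counts beside them and dotted lines at 9.85% and 5.68%, the shares of all genes tested. Families drawn up after the values were seen are not plotted. Among the lists plotted, the bars of the tracheal factors (10 of 16) and septate junctions (14 of 25) reach farthest to the right and that of the midgut enzymes (11 of 21) farthest to the left.

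The largest shared differences were in genes of very different kinds. Among genes with no overlap between tracheal and whole-fly libraries and a mean of at least 10 RPKM in both tracheal groups (263 genes), the 20 with the largest fold in their weaker stage were *CG11413*, *CG2157*, *CG16820*, *CHKov2*, *CG10973*, *PGRP-LF*, *CHKov1*, *Edg91*, *rgn*, *Drip*, *CG8630*, *CG13082*, *Xrp1*, *CG15629*, *CG1607*, *caix*, *edl*, *CG5397*, *CG12814* and *mfas*. None of the reads of *CG11413* were uniquely mapped and 31.6% of those of *rgn*, so their levels cannot be assigned to these genes with certainty. *CG2157* was at 39.3, 60.4, 33.2 and 33.3 RPKM in adult tracheae, at 8.85, 147, 10.1 and 266 RPKM in larval tracheae and at 0 to 0.554 RPKM in whole flies. *CG16820* was at 25.3, 87.9, 90.4 and 27.4 RPKM, at 25.8, 124, 27.9 and 95.7 RPKM and at 0 to 0.942 RPKM. In both genes larval replicates 2 and 4 were higher than larval replicates 1 and 3.

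*Drip* encodes an aquaporin, a channel for water. It was at 27.2, 44.5, 90.05 and 26.8 RPKM in adult tracheae, at 36.02, 18.6, 22.2 and 10.3 RPKM in larval tracheae and at 0.519, 1.86, 1.67 and 0.442 RPKM in whole flies. Its log2 fold change was 6.01 in adult and 4.85 in larval tracheae (adjusted p = 0.000382 and 0.000124). Adult and larval tracheae were not called different (log2 fold change 1.17, adjusted p = 0.165). *Drip* was the sole shared member of 5 tested genes of the list of pickpocket and water channels, beside 9.85% of all genes. Of the 5, 1 was lower in both groups together and 2 were lower in larval tracheae. The median log2 fold change of the list was -0.791 for both groups, 1.23 for adult and 0.167 for larval tracheae. Whole flies had a summed level of 196 to 249.5 RPKM for the list, with 153 to 214 RPKM for adult and 54.9 to 84.7 RPKM for larval libraries.

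*Xrp1*, a transcription factor of the response to DNA damage and of cell competition, was at 41.2, 69.4, 44.4 and 12.3 RPKM in adult tracheae, at 63.4, 52.9, 57.9 and 67.7 RPKM in larval tracheae and at 2.19, 1.34, 1.24 and 4.99 RPKM in whole flies, 24.2-fold and 37.0-fold higher. The neighbours *CHKov1* and *CHKov2*, which encode proteins of the choline kinase-like group, were 50.7-fold and 63.7-fold higher in adult and 93.6-fold and 126-fold higher in larval tracheae. *mfas*, which encodes a secreted fasciclin-domain protein, was at 95.5, 231, 90.6 and 58.6 RPKM in adult tracheae, at 1272, 916, 512 and 1294 RPKM in larval tracheae and at 2.69 to 13.9 RPKM in whole flies. All these genes stayed in the set when any single library was left out.

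**Figure D4:**
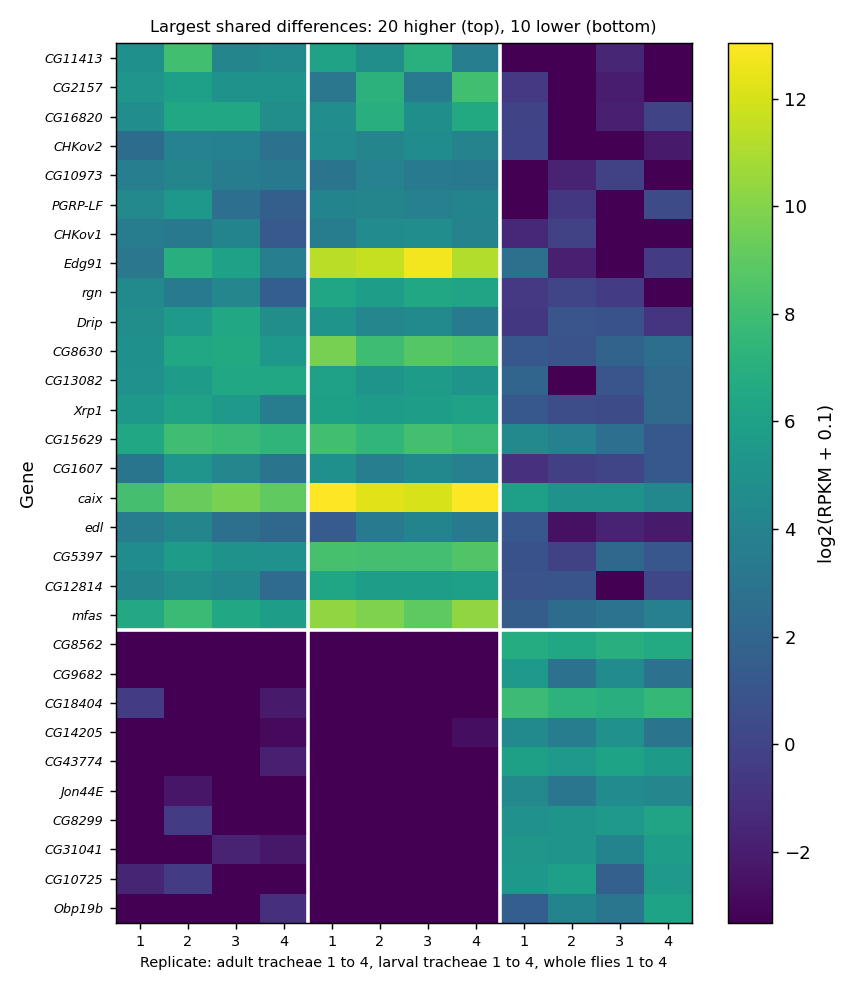
Level as log2(RPKM + 0.1) of the 20 shared higher and the 10 shared lower genes with the largest fold in their weaker stage (rows) in the 12 libraries (columns), with white lines between groups. In each upper row every tracheal library is above every whole-fly library, and in the lower rows all but a few tracheal libraries are at the floor of the scale.

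Immune recognition stood among these genes. *PGRP-LF*, a membrane protein that damps the Imd pathway, was at 20.7, 42.1, 6.17 and 2.95 RPKM in adult tracheae, at 16.8, 17.0, 13.7 and 16.3 RPKM in larval tracheae and at 0, 0.523, 0 and 1.22 RPKM in whole flies, 51.7-fold and 54.0-fold higher (adjusted p = 0.00293 and 0.000701). It overlaps the much more abundant gene *UGP*, and 73.3% of its reads were uniquely mapped. In a list of 32 genes of Toll and Imd signalling, drawn up after the values were seen, 12 were shared higher and 0 lower. These counts stand beside 9.85% and 5.68% of all genes. The higher count was 8 to 13 when a single library was left out (8 without adult trachea replicate 2) and 9 with an offset for exon length. In larval tracheae by themselves 16 of the 32 were higher and 3 lower than in whole flies. The receptor gene of the Imd pathway, *PGRP-LC*, was at 16.2, 37.1, 13.7 and 10.4 RPKM in adult tracheae, at 39.5, 33.01, 31.9 and 52.7 RPKM in larval tracheae and at 5.64, 6.25, 6.14 and 4.92 RPKM in whole flies. *PGRP-SA*, which recognises peptidoglycan upstream of Toll, was at 88.7 ± 71.4 RPKM (SD, n = 4) in adult, 84.6 ± 33.5 in larval tracheae and 15.1 ± 2.28 in whole flies. *Tep2*, a thioester protein of the humoral defence, was 16.6-fold and 12.9-fold higher, with adult replicate 2 at 64.3 RPKM and the other adult libraries between 5.96 and 10.1 RPKM.

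The shared genes with the highest level in their weaker stage were *eEF1alpha1*, *RpL15*, *Gs2*, *CG8012*, *Cat*, *Idgf4*, *EbpIII*, *GstE12*, *atilla* and *Cys*. *Gs2*, a glutamine synthetase that is also a marker of glia, was at 724, 1695, 1492 and 760 RPKM in adult tracheae, at 1174, 2516, 481 and 3450 RPKM in larval tracheae and at 102, 52.8, 92.4 and 107 RPKM in whole flies. It was 18.8-fold and 31.7-fold higher. The glial regulator *repo* had reads in adult tracheae and none in larval tracheae, and *Gs2* was the one shared gene of 6 tested glia markers. In adult tracheae by themselves 3 of the 6 were higher and 0 lower than in whole flies. In larval tracheae 1 was higher and 2 were lower. The part of glia in the level of *Gs2* was not tested.

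*Cat*, which encodes catalase, the enzyme that breaks down hydrogen peroxide, was at 885, 1630, 1697 and 2089 RPKM in adult tracheae, at 551, 851, 580 and 1360 RPKM in larval tracheae and at 332, 270, 285 and 296 RPKM in whole flies, 7.49-fold and 4.19-fold higher. *glob1*, the fly's haemoglobin, which is known from tracheae and fat body, was at 411, 572, 388 and 343 RPKM in adult tracheae, at 556, 389, 547 and 522 RPKM in larval tracheae and at 111, 73.3, 73.7 and 101.1 RPKM in whole flies. Its 6.61-fold and 8.36-fold higher levels kept their call under each alternative that was tried. *glob1* was 1 of 3 shared higher genes among 6 tested genes of oxygen sensing, and the others left the set without 1 or more libraries (1 gene was left without whole fly replicate 3). *Idgf4* and *Idgf3* belong to the imaginal disc growth factors, chitinase-like secreted proteins without chitinase activity. They were 4.88-fold and 9.23-fold higher in adult and 26.5-fold and 8.85-fold higher in larval tracheae. Of the 6 members of this family, drawn up after the values were seen, 4 were shared higher, beside 9.85% of all genes. The count was 2 to 4 over all alternatives, and 1 member was lower in larval tracheae than in whole flies.

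*RpL15*, of the large ribosomal subunit, and *EbpIII*, an ejaculatory bulb protein, were less stable. The adult call of *RpL15* was lost without any 1 of adult trachea replicates 1 and 2, larval trachea replicates 1, 2 and 4 and whole fly replicates 2, 3 and 4 (edgeR adjusted p = 0.0503 to 0.118). The larval call of *EbpIII* was lost without larval trachea replicate 4 (adjusted p = 0.0525), and that of *GstE12*, a glutathione transferase, with library sizes taken without the 20 highest genes (adjusted p = 0.0562) and with edgeR's glmTreat (0.188). With limma on RPKM the larval calls of *EbpIII* (adjusted p = 0.426 to 0.499) and *GstE12* (0.666 to 0.725) and the adult call of *eEF1alpha1*, an elongation factor of translation (0.1 to 0.151), were lost. The larval log2 fold change of *GstE12* was 0.72 in edgeR and 0.15 in limma.

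A further 3 shared genes, picked after their values were seen and not from a list, encode homeotic proteins or a partner of them. The homeotic gene *Antp* was at 5.42, 6.47, 4.09 and 0.0922 RPKM in adult tracheae, at 16.7, 8.85, 26.4 and 11.6 RPKM in larval tracheae and at 0 to 0.466 RPKM in whole flies. Adult replicate 4 lay inside the range of the whole flies. *hth*, which encodes a partner of the homeotic proteins, was at 3.71, 7.98, 6.74 and 1.06 RPKM in adult tracheae, at 8.14, 8.06, 8.05 and 6.28 RPKM in larval tracheae and at 0.0466 to 0.308 RPKM in whole flies, 40.8-fold and 65.6-fold higher. *abd-A*, the homeotic gene of the abdomen, had no read in whole flies and was at least 9.79-fold higher in adult and at least 278-fold higher in larval tracheae, with adult replicate 1 at 0.639 RPKM and the other adult libraries at 0.0562 to 0.0754 RPKM. The adult call of *abd-A* was lost with limma (adjusted p = 0.0673 to 0.527).

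Counts were also made over lists of signalling pathways drawn up after the values were seen, beside the 9.85% of all genes. Of 20 tested genes of BMP and activin signalling 11 were shared higher (6 without adult trachea replicate 3). Of 20 genes of Fat, Hippo and planar polarity 8 were (5 without whole fly replicate 3), and of 15 genes of insulin signalling 5 (2 without whole fly replicate 2). Of 19 genes of Wingless signalling 6 were shared higher, of 10 genes of Hedgehog signalling 3 and of 19 genes of epidermal growth factor receptor signalling 4. Against whole flies, 3 Hedgehog genes were lower in both groups together. The adult median log2 fold change was -0.435 for Wingless and -0.401 for Hedgehog genes, beside 0.06 over all genes. In the epidermal growth factor receptor list 1 gene was shared lower. *Egfr*, the receptor of that last pathway, was at 7.98, 7.67, 8.75 and 6.28 RPKM in adult tracheae, at 12.1, 8.20, 14.9 and 10.8 RPKM in larval tracheae and at 2.85, 1.25, 2.77 and 2.62 RPKM in whole flies. The median exon length of these lists was 3992 to 4650.5 bases, against 2070 over all genes tested. With an offset for exon length 6, 5, 4, 2, 1 and 2 of their genes were shared higher, beside 7.94% of all genes.

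Exon length itself was related to the set. The median exon length was 3600 bases in shared higher and 1283 bases in shared lower genes. Over 5 bins of genes of about equal size, from the shortest to the longest exons, 3.76, 4.75, 7.80, 10.8 and 22.2% were shared higher and 11.5, 8.07, 5.15, 2.86 and 0.847% were shared lower. With an offset that takes out each library's trend with exon length, 750 genes were shared higher, 619 of the 931 among them, and the bins held 7.04 to 8.81%. The libraries were made from cDNA that was amplified in full, and the part of amplification in this relation was not tested.

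The share of shared higher genes was similar on the large chromosomes and higher on the small chromosome 4. On the X and the 4 large autosome arms 7.36 to 10.2% of the tested genes were shared higher. On chromosome 4, a short and largely heterochromatic chromosome, 41 of 69 tested genes (59.4%) were shared higher and 1 was shared lower. The median log2 fold change of its tested genes was 2.29 in adult and 2.42 in larval tracheae. In 23 of the 69 every tracheal library was above every whole-fly library, as in 665 (7.04%) of all genes tested. Over all alternatives the count was 26 to 44, and 21 of the 41 genes were in the set under each of them.

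Genes on chromosome 4 have long exons, with a median of 4385 bases. Within the bin of the longest exons, 29 of 38 genes on chromosome 4 and 390 of 1852 genes elsewhere (21.1%) were shared higher, and with the length offset 27 of the 69 (39.1%). *zfh2*, which encodes a large zinc finger and homeodomain factor, was at 0.783, 2.69, 2.61 and 0.706 RPKM in adult tracheae and at 8.33, 6.27, 6.77 and 6.70 RPKM in larval tracheae and had no read in whole flies, at least 291-fold and at least 1219-fold higher. It overlaps *Thd1*, so that reads over the shared part cannot be assigned with certainty. *pan*, the transcription factor of the Wingless pathway, was at 2.47, 5.88, 4.65 and 1.11 RPKM in adult tracheae, at 4.77, 3.59, 4.81 and 4.06 RPKM in larval tracheae and at 0.424, 0.196, 0.0965 and 0.268 RPKM in whole flies. *ci*, the transcription factor of the Hedgehog pathway, was 9.63-fold and 130-fold higher, *PMCA*, a calcium pump of the plasma membrane, 9.80-fold and 32.01-fold, and *eIF4G1*, a scaffold of translation initiation, 7.57-fold and 13.4-fold.

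**Figure D5:**
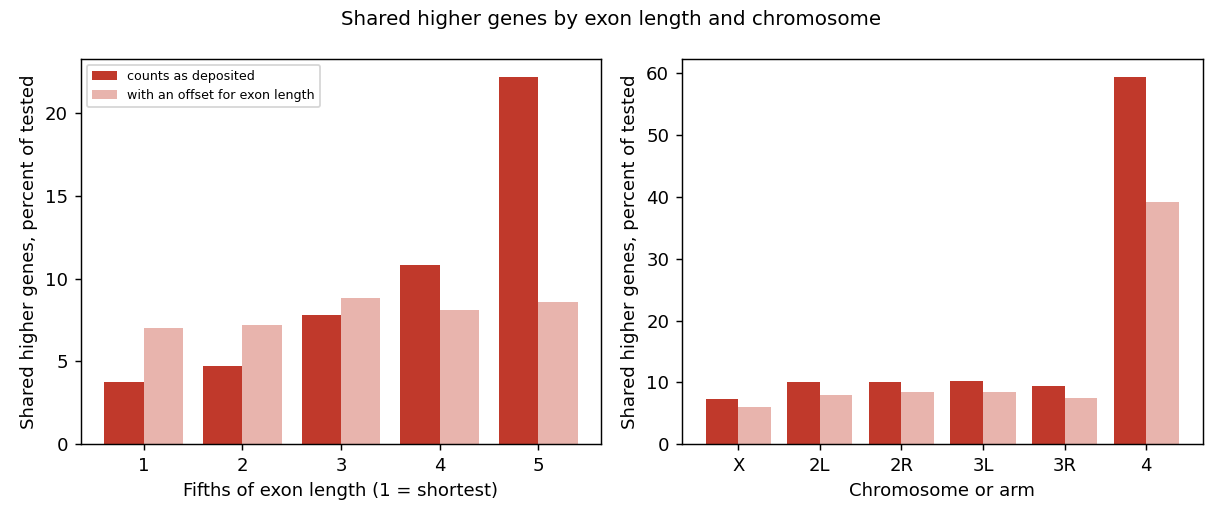
Percent of tested genes that were shared higher, by bin of exon length (left, 5 bins of about equal size) and by chromosome or arm (right), with the counts as deposited (dark) and with an offset for exon length (light). Without the offset the share rises from 3.76% in the shortest to 22.2% in the longest bin, and chromosome 4 stands at 59.4% without and 39.1% with the offset.

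Markers of other cell types that dissected tracheae could carry were counted in the same way. Of 9 tested haemocyte markers 4 were shared higher and 0 lower, beside 9.85% and 5.68% of all genes. The higher count was 3 to 5 when a single library was left out (3 without larval trachea replicate 4). In adult tracheae by themselves 7 of the 9 were higher and 0 lower, and in larval tracheae 5 were higher and 1 lower. The levels of the list summed to 177 to 221 RPKM in adult tracheal libraries, to 26.6 to 67.3 RPKM in larval ones and to 21.1 to 26.1 RPKM in whole flies. *NimC4* had no read in larval tracheae or whole flies. *Hml*, the clotting protein of haemocytes, was at 4.83, 10.3, 6.25 and 4.79 RPKM in adult tracheae, at 0.904, 1.99, 1.51 and 2.35 RPKM in larval tracheae and at 0.425, 0.542, 0.308 and 0.939 RPKM in whole flies. Larval replicate 1 lay within the range of the whole flies, and with an offset for exon length the gene was not called in each stage (largest adjusted p = 0.195). *Sr-CI*, a scavenger receptor of these cells, was 35.2-fold and 7.11-fold higher, and *PPO2*, a prophenoloxidase of crystal cells, 14.8-fold and 5.35-fold. The part of haemocytes in the levels of *Ppn*, *NimB2* and the immune genes was not tested.

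Markers of fat body, neurons and oenocytes gave no shared higher gene. The summed level of fat body markers was 39530 to 85590 RPKM in adult tracheae, 235 to 433 RPKM in larval tracheae and 14150 to 17700 RPKM in whole flies, and that of neuron markers 22.7 to 126, 1.08 to 1.86 and 4.57 to 8.91 RPKM. Both sums were above whole flies in adult and below them in larval tracheae. The gene with the most reads was *Yp1* in adult replicate 1 and *Yp3* in replicates 2 and 4, both on the fat body list. Of the 17 fat body markers 5 were higher and 8 lower in larval tracheae, and 8 were higher and 0 lower in adult ones. Oenocyte sums ran from 699 to 1083 RPKM in whole flies, with 1304 to 2954 RPKM for adult and 0.0537 to 1.53 RPKM for larval libraries. The part of fat body in the larval libraries was not tested. Muscle markers ran from 1153 to 3847 RPKM in adult and from 57.8 to 2664 RPKM in larval tracheae, with 981 to 1429 RPKM in whole flies, and the 2 shared muscle genes left the set without larval trachea replicate 1. Of 9 photoreceptor markers 8 were lower in larval tracheae and 7 in both groups together, and the list summed to 1281 to 2291 RPKM in adult tracheal libraries, 4.62 to 8.67 RPKM in larval ones and 1057 to 1222 RPKM in whole flies. Its remaining member *norpA*, a phospholipase C also used outside the eye, was shared higher, at 12.7 ± 6.05, 5.09 ± 1.88 and 2.43 ± 1.23 RPKM (SD, n = 4) in the 3 groups, but was not called in larval tracheae with an offset for exon length (adjusted p = 0.493) or with limma (0.0707 to 0.0876), and *trp* had no read in larval tracheae. None of the 6 salivary gland markers had enough reads to be tested.

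Among the shared lower genes, lists of gut, ovary and cell cycle genes held 11, 5 and 4 of the 537. Of 21 tested midgut digestive enzymes 11 were shared lower and 0 higher, beside 5.68% and 9.85% of all genes. The lower count was 9 to 16 when a single library was left out. Among shared lower genes with no overlap and at least 10 RPKM in whole flies (482 genes), the 10 with the largest fold in their weaker stage were *CG8562*, *CG9682*, *CG18404*, *CG14205*, *CG43774*, *Jon44E*, *CG8299*, *CG31041*, *CG10725* and *Obp19b*. *CG8562*, on the list as a digestive carboxypeptidase, had no read in any of the 8 tracheal libraries and was at 111, 89.3, 126 and 103 RPKM in whole flies. Its level was thus at least 1489-fold lower in adult and at least 945-fold lower in larval tracheae. *CG9682* had no read in the tracheae either, with 44.8, 6.87, 23.7 and 7.03 RPKM in whole flies. *Jon44E*, a serine protease of the gut, had 1 read in adult and 0 in larval tracheae, beside 20.6, 8.404, 23.1 and 19.0 RPKM in whole flies, and it overlaps *CG8586*. The ratio of reads was 661 in adult tracheae (95% counting interval 118 to 26152), and the level was at least 140-fold lower in larval tracheae. Midgut transcripts were not absent from adult tracheae as a list, with a summed level of 1983 to 14100 RPKM against 7.66 to 100.8 RPKM in larval tracheae and 47550 to 52260 RPKM in whole flies.

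Of 26 genes of ovary and eggshell 25 were lower in the 8 tracheal libraries together, beside 23.2% of all genes. Only 5 were shared lower, beside 5.68% of all genes, with 1 without whole fly replicate 4 and 9 without adult trachea replicate 4. The summed level of that list was 9146, 347, 123.1 and 14420 RPKM in the 4 adult tracheal libraries, so that adult replicate 4 was above the lowest whole fly at 13680 RPKM, while larval tracheae were at 1.76 to 7.87 RPKM. Whole flies were at 13680 to 34360 RPKM. Of 20 cell cycle and replication genes 4 were shared lower, beside the same 5.68%, with 2 without adult trachea replicate 1 and 11 without adult trachea replicate 4. *CycA*, the cyclin of S and G2 phase, was at 25.7, 53.6, 2.04 and 47.6 RPKM in adult tracheae, at 14.8, 14.5, 22.7 and 9.90 RPKM in larval tracheae and at 199, 185, 188 and 123.4 RPKM in whole flies. *RnrS*, a subunit of ribonucleotide reductase, fell by 1.85 on the log2 scale in adult and by 2.53 in larval tracheae. The part of ovary tissue in these differences was not tested.

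Families of short housekeeping genes were counted after the values were seen, beside the 5.68% of all genes that were shared lower. Of 73 mitochondrial ribosomal protein genes 24 were shared lower and 0 higher, of 34 proteasome subunit genes 10 were lower and 0 higher, and of 11 Sm and LSm genes of splicing 6 were lower. *mRpS18A* was at 73.3, 122.9, 48.0 and 152 RPKM in adult tracheae, at 44.4, 50.1, 65.9 and 63.8 RPKM in larval tracheae and at 342, 411, 331 and 321 RPKM in whole flies. *Prosbeta4* was at 129, 194, 54.9 and 252 RPKM, at 115.1, 157, 148 and 124 RPKM and at 506, 548, 518 and 460 RPKM. Median exon lengths were 783, 1398.5 and 727 bases in these 3 families, and with an offset for exon length 1, 0 and 0 of their genes were shared lower. Without whole fly replicate 2 the counts of the first 2 families were 7 and 4, without adult trachea replicate 4 they were 34 and 18, and that of the third was 3 without larval trachea replicate 1. A further family, the cytosolic ribosomal proteins (79 tested, median exon length 927 bases), had 2 genes shared higher and 2 shared lower. With the offset for exon length 10 genes of that family were shared higher.

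Within the shared set the stages still differed in level, in a share of genes near that of all genes tested. Adult and larval tracheae were called different in 2945 (31.2%) of all genes tested. Of the 931 shared higher genes 268 (28.8%) were lower in adult than in larval tracheae and 19 (2.04%) were higher. The other 644 (69.2%) were not called. Over all genes tested 10.4% were lower in adult tracheae, 20.8% were higher and 68.8% were not called. *Twdlbeta*, of the Tweedle family of cuticle proteins, was at 9.78, 5.96, 5.04 and 2.47 RPKM in adult tracheae, at 1478, 1156, 1737 and 1130 RPKM in larval tracheae and at 0 to 0.776 RPKM in whole flies. *CG13067* was at 307, 370, 436 and 263 RPKM in adult and at 124610, 40412, 129270 and 32821 RPKM in larval tracheae, beside 26.02 to 73.6 RPKM in whole flies. The adult level was 0.423% and 0.421% of the larval one for these genes, and the level in whole flies 0.0167% and 0.0633%. In all, 14 shared higher genes had an adult level under 1% of the larval level and 44 under 5%. *Edg91*, an ecdysone-dependent cuticle gene, was likewise at 9.02, 122, 66.5 and 12.7 RPKM in adult and at 2571, 3047, 6727 and 2254 RPKM in larval tracheae, with a highest whole fly at 6.44 RPKM.

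Of the 19 shared genes that were higher in adult than in larval tracheae, the list of haemocyte markers held *Hml*, *NimC1*, *PPO2* and *Sr-CI*. *NimC1*, a phagocytosis receptor, was at 51.4, 58.1, 15.998 and 22.5 RPKM in adult tracheae, at 2.26, 3.05, 2.78 and 4.16 RPKM in larval tracheae and at 1.69, 2.77, 2.50 and 1.12 RPKM in whole flies. Its larval call was lost without larval trachea replicate 4, whole fly replicate 1 or whole fly replicate 4 (edgeR adjusted p = 0.0602 to 0.0753). *NimB2*, a secreted protein of the Nimrod family, was at 434, 755, 181 and 370 RPKM, at 182, 95.7, 94.6 and 141 RPKM and at 82.8, 58.7, 112 and 51.9 RPKM, 7.37-fold and 2.53-fold higher than in whole flies, with its larval call lost with limma (adjusted p = 0.148 to 0.216). *dati*, a zinc finger gene on chromosome 4, had no read in whole flies and was at 0.573 to 2.85 RPKM in adult and at 0.0198 to 0.142 RPKM in larval tracheae, at least 107-fold and at least 5.65-fold higher, and its larval call was lost with limma (adjusted p = 0.212 to 0.818).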

How the data were processed

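Total RNA of 12 samples, each from 3 pooled animals, was amplified as full-length cDNA and sequenced on an Illumina NextSeq. The authors mapped the reads to BDGP6 in CLC Genomics Workbench (version not given in the sources used here). The deposited files give exon read counts per gene and RPKM, whose definition over exon length and gene reads was checked on all 212364 values (relative tolerance 1e-06). Total exon read counts were fitted in edgeR 4.0.16 (R 4.3.3) with TMM factors and quasi-likelihood tests over all 12 libraries and Benjamini-Hochberg adjustment, over genes that reached 10 reads in 4 or more libraries. Calls needed a fold above 1.5 with an adjusted p below 0.05. Shared genes were called alike for both tracheal groups together and for each. DESeq2 1.42.0 and limma 3.58.1 gave alternatives, and the code was tested on simulated data. Identifiers came from Ensembl 115.

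Genes named by rank were those with the largest fold in the weaker stage, without overlap and at or above 10 RPKM (20 higher, 10 lower), the 10 with the highest level in the weaker stage, and shared members of the lists. Other genes and the added families were chosen after their values were seen, and the members and lists were chosen with earlier results of these data known. P-values measure the spread between these libraries only. Reads carry no molecular identifiers, so intervals and floors cover counting error only. Of 352 list entries 4 were not found in the files.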

Additional observations from a re-analysis of the deposited data

Results flagged for a closer look

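Groups of 4 libraries were looked at, 3 for each of 92 genes. In 27 of these groups 1 library stood apart from the other 3 by a gap above Dixon's critical value. Chance flags about 1 group in 20 where values spread normally, which RPKM need not do. Where the other 3 libraries are at 0 a single read is enough. In adult tracheae there were *emp* at 90.5 RPKM in replicate 2 (43.5 to 50.7 in the others), *CG11413* at 268 RPKM in replicate 2 (17.5 to 29.4 in the others) and *abd-A* at 0.639 RPKM in replicate 1 (0.0562 to 0.0754 in the others). There were also, in adult tracheae, *Tep2* at 64.3 RPKM in replicate 2 (5.96 to 10.1 in the others). Found in a single library of adult tracheae were *CG14205* (0.0329 RPKM in replicate 4), *CG43774* (0.176 RPKM in replicate 4), *Jon44E* (0.0985 RPKM in replicate 2), *CG8299* (0.630 RPKM in replicate 2) and *Obp19b* (0.358 RPKM in replicate 4). In larval tracheae there were *reb* at 83.9 RPKM in replicate 4 (65.01 to 67.0 in the others), *norpA* at 7.88 RPKM in replicate 3 (3.945 to 4.57 in the others) and *hth* at 6.28 RPKM in replicate 4 (8.05 to 8.14 in the others). Found in a single library of larval tracheae was *CG14205* (0.0524 RPKM in replicate 4). In whole flies there were *CHKov2* at 0.894 RPKM in replicate 1 (0 to 0.127 in the others), *Edg91* at 6.44 RPKM in replicate 1 (0 to 0.609 in the others) and *edl* at 2.04 RPKM in replicate 1 (0.0696 to 0.192 in the others). There were also, in whole flies, *RpL15* at 4235 RPKM in replicate 1 (1912 to 2223 in the others), *pot* at 1.28 RPKM in replicate 1 (0 to 0.0845 in the others) and *sty* at 1.06 RPKM in replicate 1 (0.242 to 0.372 in the others). There were also, in whole flies, *ogre* at 5.41 RPKM in replicate 3 (2.52 to 2.90 in the others), *Egfr* at 1.25 RPKM in replicate 2 (2.62 to 2.85 in the others) and *PMCA* at 3.17 RPKM in replicate 1 (0.763 to 0.937 in the others). There were also, in whole flies, *Ppn* at 5.76 RPKM in replicate 4 (2.365 to 2.55 in the others). Found in a single library of whole flies were *CG11413* (0.231 RPKM in replicate 3), *knrl* (0.142 RPKM in replicate 1), *reb* (0.0838 RPKM in replicate 1) and *Cda5* (0.116 RPKM in replicate 3).

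Adult and larval tracheae differed from each other in 36 of the 92 genes looked at, beside 31.2% of all genes tested. The calls are those of edgeR's quasi-likelihood test of the difference (adjusted p under 0.05, fold above 1.5). Some of the 92 genes were chosen after their values were seen. The log2 fold change of adult against larval tracheae was -3.39 for *btl*, -2.85 for *emp*, -6.23 for *Edg91*, -2.40 for *rgn*, -2.89 for *CG8630* and -3.54 for *caix*. It was -3.29 for *CG5397*, -3.23 for *mfas*, -2.44 for *Idgf4*, -1.92 for *stumps*, -4.22 for *dpy* and -2.25 for *pio*. It was -7.60 for *reb*, -4.18 for *Cda5*, -3.02 for *trol*, -2.09 for *by*, -2.24 for *zip* and -2.80 for *grh*. It was -1.56 for *vvl*, -1.54 for *ogre*, -3.15 for *Inx3*, -7.97 for *Twdlbeta*, -7.94 for *CG13067* and -4.19 for *abd-A*. It was -3.76 for *ci*, -1.19 for *PGRP-LC*, -2.07 for *zfh2*, -1.71 for *PMCA* and -0.99 for *eEF1alpha1*. Higher in adult tracheae, it was 2.31 for *Sr-CI*, 1.47 for *PPO2*, 1.85 for *Hml*, 3.42 for *NimC1*, 4.24 for *dati*, 1.54 for *NimB2* and 1.62 for *Ppn*.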

How the results depend on the processing

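The number of genes lower in both tracheal groups together was 2188, against 936 with the 8 tracheal libraries fitted as 1 group, 1432 with edgeR's glmTreat against 1.5-fold, and 3453, 3312 and 3617 with limma on log2(RPKM + 0.1), on the same without a filter and on log2(RPKM + 1). With those limma settings 590, 543 and 532 genes were shared higher and 1492, 1366 and 1996 shared lower. Over all genes the median for both groups against whole flies was, on the log2 scale, -0.67, -0.35 and -0.52 in them, beside -0.19 in the main test. With glmTreat 235 were shared lower. Of the shared higher genes 268 were lower in adult than in larval tracheae, against 168 with glmTreat and 163 with limma without a filter. The cause of these differences was not tested. Leaving out single libraries gave 1412 to 1866 genes higher and 1653 to 2412 lower for both groups, 663 to 1157 shared higher, 269 to 872 shared lower and 198 to 263 shared higher genes lower in adult tracheae. DESeq2 gave 1271 shared higher (926 of the 931 among them) and 679 shared lower (524 of the 537). With an offset for exon length *sls* changed direction, at a log2 fold change of -0.93 (adjusted p = 0.137). Replicate numbers were not taken as pairs in the main test, and the labels do not say whether samples of the same number were handled together. Deviations of libraries with the same number correlated at -0.100 to 0.0420 and those of others at -0.0767 to 0.113. With the replicate block 726 genes were shared higher and 397 lower. In all, 569 of the 931 and 214 of the 537 genes stayed when any single library was left out, and 317 and 119 under each of the 29 alternatives. Levels under 3 reads were not resolved at this depth. The promoter motif alternative was not run.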
